A study of Mus musculus with 12 samples.

Results

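The 10 genes described here encode enzymes that make, convert or use the nicotinamide coenzymes: Nampt, Nmnat1, Nmnat2, Nmnat3, Nadk, Nnt, Sirt1, Sirt2, Sirt3 and Sirt5. They were taken as a fixed list of symbols, not by their values; all 10 were among the 24421 gene rows of the count files, and all 10 were among the 13583 genes with enough reads to be tested. The RNA came from pancreatic islets, the clusters of hormone-secreting cells in the pancreas, and was sequenced in bulk from 6 Il22ra1βKO libraries (BKO, β cells lacking interleukin-22 receptor subunit alpha 1) and 6 Ins2Cre libraries (Cre, the controls). All 12 libraries came from mice fed a high-fat diet for 6 weeks. Strain, sex, age and the number of mice behind each library are not stated in the labels, nor is the Cre allele of the BKO mice, so each p-value is set by how far these libraries vary, which may be partly technical. The series title names cytochrome b5 reductase 3, an enzyme that oxidises NADH.

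NAD carries electrons between enzymes and is also consumed as a substrate. In most mammalian cells it is rebuilt from nicotinamide in a short salvage route: NAMPT makes nicotinamide mononucleotide, and the NMNAT enzymes join this to ATP to give NAD, NMNAT1 in the nucleus, NMNAT2 at the Golgi and in the cytosol, and NMNAT3 in mitochondria. NADK phosphorylates NAD to NADP, and NNT uses the proton gradient of the inner mitochondrial membrane to pass electrons from NADH to NADP. The sirtuins consume NAD while they remove acyl groups from proteins, SIRT1 mainly in the nucleus, SIRT2 in the cytosol, SIRT3 and SIRT5 in mitochondria. In β cells, mouse studies have linked Nampt, Sirt1 and Nnt to glucose-stimulated insulin secretion.

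None of the 10 genes passed the test between BKO and Cre islets. The gene furthest from equality was Nmnat2, with a fitted fold of 0.700, BKO over Cre, and an edgeR adjusted p of 0.216. Nampt and Sirt1 had slightly higher means in BKO, and the other 7 genes had log2 fold changes between -0.097 (Nnt) and 0.029 (Nmnat3). At an adjusted p under 0.05 (edgeR's quasi-likelihood test, Benjamini-Hochberg over all genes), 0 of the 10 were called, with a background of 0% of the 13583 genes. At an unadjusted p under 0.05 there was 1 of the 10, Nmnat2, which was lower, against 13.4% of all genes, 8.7% higher and 4.66% lower. DESeq2 called 0 of the 10, with a background of 1.32% of the 14977 genes it gave an adjusted p, and limma-voom called 0 of the 10, with a background of 0%. The median log2 fold change of the 10 was 0.0024, beside 0.0078 over all genes, with 5 positive and 5 negative. In none of the 10 were the BKO and Cre libraries fully separated, as they were for 0.508% of all genes, 0.331% with BKO higher and 0.177% with BKO lower.

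**Figure D1:**
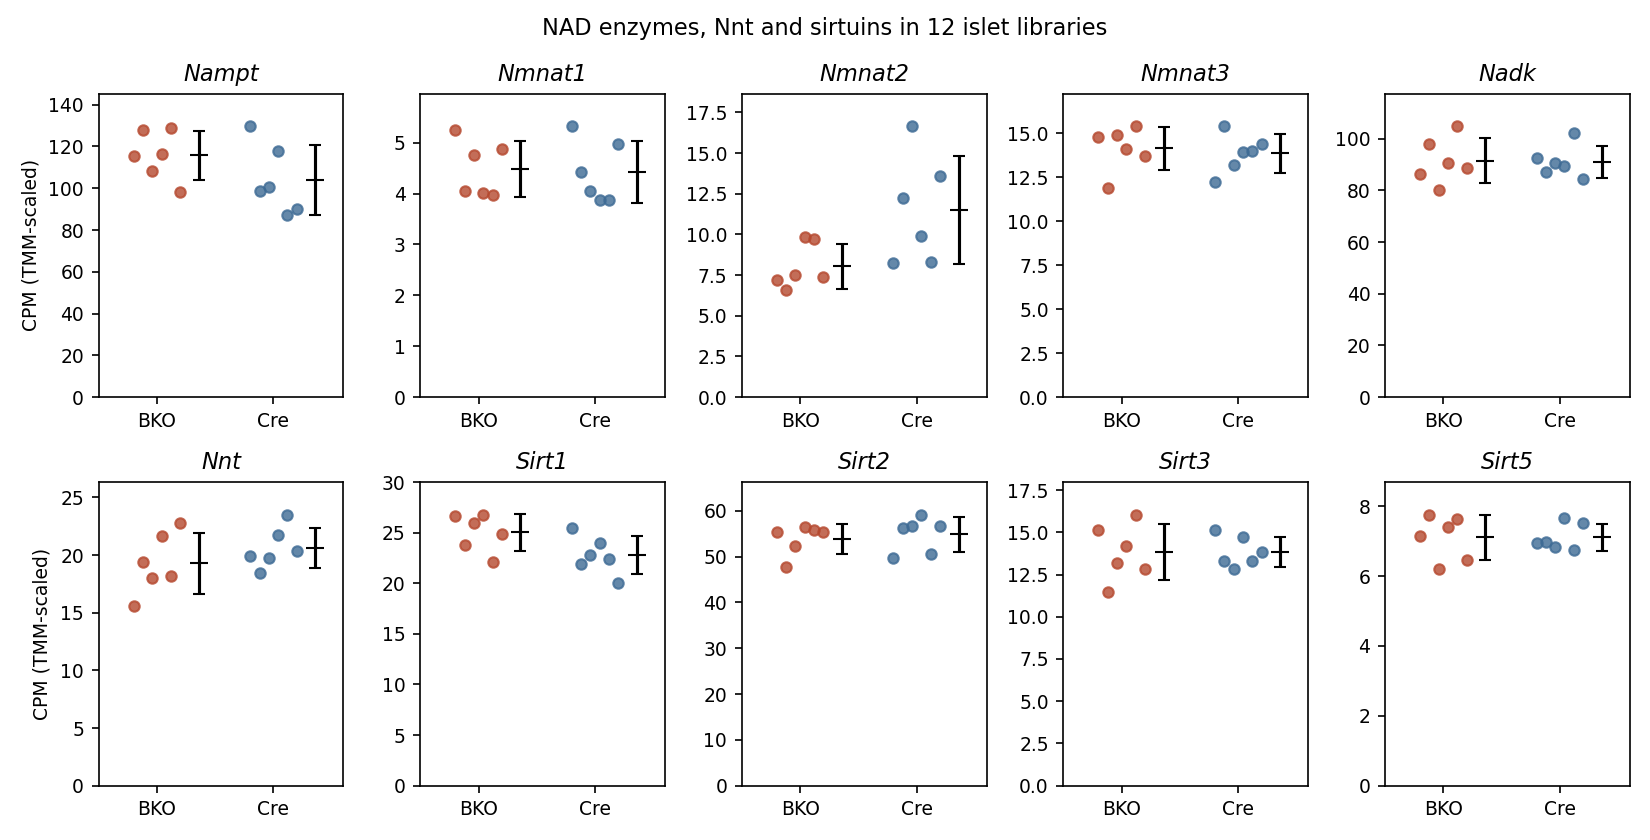
Level of each of the 10 genes in CPM (y axes start at 0) in 6 BKO and 6 Cre islet libraries; points are libraries, bars the mean ± SD. Nmnat2 has the largest relative gap between the means, 8.05 CPM on average in BKO and 11.5 CPM in Cre, and the libraries of the groups overlap in every panel.

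Levels are given in CPM, the reads of a gene scaled to a common library total after TMM normalisation. Reads assigned to genes numbered 10356093 to 11902217 in BKO libraries and 11444273 to 12397139 in Cre libraries, so 3 reads, the floor used here, equalled between 0.238 and 0.283 CPM. Each of the 10 genes lay well above it: the fewest reads of any in a library were 42, for Nmnat1, and the most were 1511, for Nampt. Insulin transcripts were abundant, with Ins2 at 71130 CPM on average in BKO and 74726 CPM in Cre. Il22ra1, the deleted gene, had only 1 to 5 reads in a library and was not tested, so at this depth its counts do not check the labels. Cyb5r3, the NADH-oxidising enzyme of the series title, averaged 422 ± 25.7 CPM over the 6 BKO libraries and 458 ± 32.7 CPM over the 6 Cre libraries (SD; log2 fold change -0.12 ± 0.058 SE, edgeR adjusted p = 0.391).

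The mean levels of markers of several cell types differed between BKO and Cre islets, and every bulk value given here stands beside them. The summed levels of each list overlapped in range between the groups. Summed CPM of 10 endothelial markers ranged from 509.8 to 714.8 in BKO and from 405.8 to 562.4 in Cre, with all 10 positive in fold change. Summed CPM of 5 α-cell markers ranged from 12433 to 25251 in BKO and from 9173 to 14486 in Cre, with all 5 positive. Of 11 β-cell markers, 10 had a negative fold change, and their sum ranged from 98049 to 156302 CPM in BKO and from 121269 to 152598 CPM in Cre. Summed CPM of 3 δ-cell markers ranged from 1439.6 to 2179.3 in BKO and from 1223.8 to 1892.9 in Cre, with all 3 positive. Summed CPM of 8 stellate and mesenchymal markers ranged from 57.6 to 96.2 in BKO and from 37.1 to 80.6 in Cre, with 7 of 8 positive. Macrophage markers, 7 of 8 negative, summed to between 126.3 and 153.2 CPM in BKO and between 132.6 and 170.3 CPM in Cre, and 6 duct markers, 4 of them positive, to between 1601.7 and 2755.4 CPM in BKO and between 1885.5 and 2458 CPM in Cre. No marker of these lists passed the test, and none was at 0 in any library. An unadjusted edgeR p under 0.05 was found for all 10 endothelial, all 5 α-cell and all 3 δ-cell markers, against 13.4% of all genes. The same held for 4 of 11 β-cell, 5 of 8 stellate and mesenchymal, 3 of 8 macrophage and 3 of 6 duct markers. In the endothelial, stellate and macrophage lists, 1 marker each had BKO and Cre libraries fully separated, against 0.508% of all genes. A sum rests mostly on its most abundant markers. In BKO, Gcg averaged 17124 of the 17898 CPM of the α-cell sum, and Spp1 1637 of the 2278 CPM of the duct sum. Single duct markers ran from -0.69 (Cftr) to 1.43 (Krt19) in log2 fold change. In bulk RNA, fewer cells of a type and less RNA per cell cannot be told apart. The part of these differences in the values of the 10 genes was tested only by adding the endothelial or the acinar marker level to the model as a covariate.

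Compared per kilobase of exon, the only scale on which levels of different genes are set side by side here, the 10 genes fell into tiers. Nadk stood highest, with 27.0 ± 2.59 CPM per kb in BKO and 26.9 ± 1.83 in Cre (SD, n = 6 each). Nampt followed at 25.6 ± 2.58 in BKO and 22.9 ± 3.66 in Cre, and Sirt2 at 23.9 ± 1.46 in BKO and 24.3 ± 1.71 in Cre. The ranges of Nadk and Nampt overlapped over the 12 libraries, as did those of Nampt and Sirt2; Nampt was above Sirt2 in 6 of the 12. A gap followed, with no overlap, down to Sirt3 at 8.01 ± 0.964 in BKO and 8.04 ± 0.518 in Cre. The next tier, without overlap with Sirt3, held Nmnat3 at 5.70 ± 0.503 and 5.59 ± 0.439, Sirt1 at 5.65 ± 0.415 and 5.14 ± 0.423, and Nnt at 4.39 ± 0.597 and 4.70 ± 0.400 CPM per kb in BKO and Cre. Neighbours within this tier overlapped. The lowest levels were those of Sirt5, at 2.41 ± 0.215 in BKO and 2.41 ± 0.132 in Cre, Nmnat2 at 1.74 ± 0.297 in BKO and 2.48 ± 0.717 in Cre, and Nmnat1 at 1.57 ± 0.191 in BKO and 1.54 ± 0.213 in Cre. Sirt5 and Nmnat1 lay below every Nnt value, while the highest Nmnat2 value, 3.60 CPM per kb in Cre-3, exceeded the lowest Nnt value, 3.55 in BKO-1; Nmnat2 overlapped with Sirt5 and with Nmnat1 as well. Lengths came from GENCODE M21, which may differ from the annotation used for counting, so the gaps between tiers and the order within a tier depend on it.

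Nampt encodes the rate-limiting enzyme of the salvage route and occupies chromosome 12, 32819545 to 32853349, plus strand (ENSMUSG00000020572.8; all gene positions are in mm10), where the noncoding gene Gdap10 overlaps it on the same strand. Its lowest, median and highest levels were 98.2, 115.8 and 129.0 CPM in BKO and 87.2, 99.4 and 129.8 CPM in Cre. The BKO libraries lay toward the upper part of the Cre range, with 5 of 6 above the Cre mean, but the highest single value was that of Cre-1. Mean levels were 115.8 ± 11.7 CPM over the 6 BKO libraries and 103.9 ± 16.6 CPM over the 6 Cre libraries (SD). The log2 fold change was 0.16 ± 0.095 (SE; 95% interval -0.045 to 0.36; edgeR adjusted p = 0.520). Without Cre-1, which also had the largest share of reads set aside for low alignment quality (27.3%), the log2 fold change was 0.21 (edgeR adjusted p = 0.209). With the acinar marker level as a covariate it was 0.080 (adjusted p = 0.896); summed acinar markers ranged from 1353.6 to 4828.7 CPM in BKO and from 214.3 to 6161.7 CPM in Cre, with 8 of 10 genes tested, all 8 positive, Prss1 at 0 in 10 of the 12 libraries and Amy2a5 at 0 in 2.

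Nampt varied more between control libraries than the median gene: the SD of its log2 CPM was 0.22 in Cre, beside a median of 0.13 over all genes, and 0.15 in BKO, beside 0.17. Its pattern over the 12 libraries was nearest to that of 3 interferon-stimulated genes. Among 9963 genes searched (mean log2 CPM of at least 3, predicted gene models left out), Ifit3, which restrains viral RNA, differed least from it, by a root mean square of 0.346 SD of the standardised log2 CPM. Ddx58, the viral RNA sensor RIG-I, followed at 0.380 SD and Herc6, an ISG15 ligase in mouse, at 0.382 SD; the median gene differed by 1.36 SD. All 4 genes stood high in Cre-1, BKO-2 and BKO-5 and low in Cre-5, Cre-6 and BKO-6, so high and low libraries came from both groups. Ifit3, for example, had 70.7 CPM in BKO-6 and 157.9 CPM in BKO-5, and 57.5 CPM in Cre-5 and 176.5 CPM in Cre-1. These genes were found by the search itself, so their likeness is a description of these libraries.

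**Figure D2:**
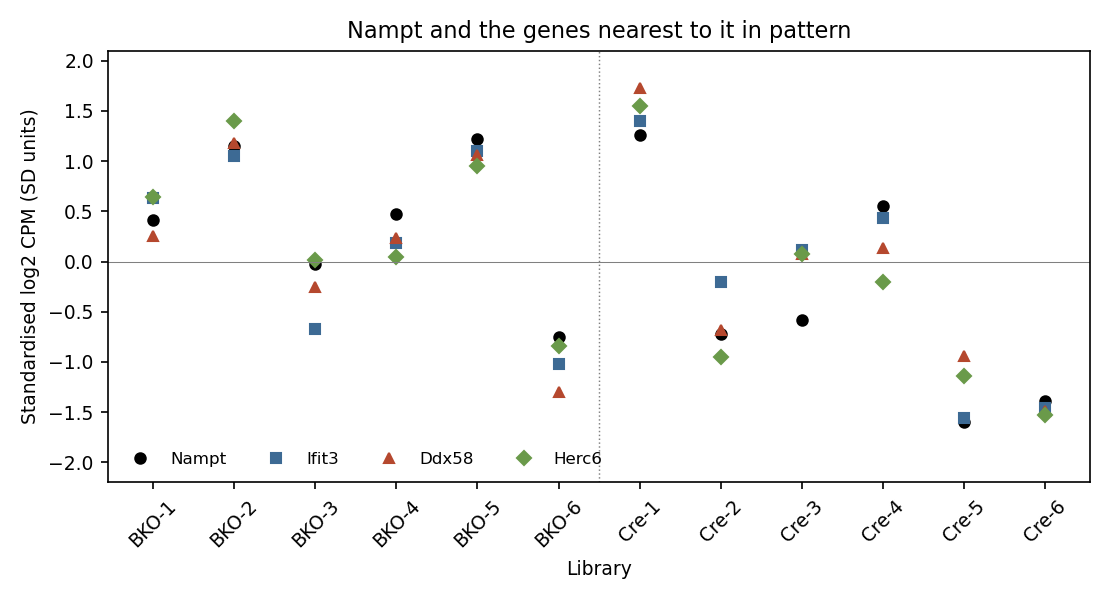
Standardised log2 CPM (SD units, y axis) of Nampt and the 3 genes nearest to it in pattern, in each of the 12 islet libraries (x axis; BKO to the left of the dotted line, Cre to the right). The 4 markers stay close together in most libraries and are highest in Cre-1, BKO-2 and BKO-5.

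Among the NMNAT paralogs, which complete NAD synthesis in different compartments, Nmnat2 stood furthest from equality. Nmnat2 (chromosome 1, 152954993 to 153119261, plus strand, ENSMUSG00000042751.14) had 6.62, 7.45 and 9.83 CPM as lowest, median and highest in BKO, and 8.25, 11.1 and 16.7 CPM in Cre. Of the 6 BKO libraries, 4 lay below every Cre library and all 6 below the Cre mean; BKO-4 and BKO-5 overlapped with Cre-1 and Cre-5. The mean level was 8.05 ± 1.37 CPM over the BKO libraries and 11.5 ± 3.32 CPM over the Cre libraries (SD), and the log2 fold change was -0.51 ± 0.17 (SE; 95% interval -0.88 to -0.15). The edgeR p was 0.00801, and 0.216 after adjustment; 3.70% of genes had a smaller p. In a test of this gene alone, the exact permutation p (two-sided, 924 splits) was 0.0368. The Cre libraries were spread widely, with an SD of log2 CPM of 0.40 beside a median of 0.13 over all genes, and Cre-3 was the highest. Gm28960 overlaps Nmnat2 on the opposite strand, and its reads in the overlap are uncertain, as no source used here gives the strand setting.

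Among the alternative fits, Nmnat2 had its smallest difference with the endothelial marker level in the model. Its log2 fold change was negative in all 22 alternative fits, and its unadjusted p was under 0.05 in 21 of them. The exception was the fit with the endothelial level as a covariate, where it was -0.22 ± 0.29 (SE; edgeR adjusted p = 0.953). That level was itself higher in BKO (mean log2 CPM 5.68 against 5.24 in Cre; exact two-sided permutation p = 0.00433), so it can take up part of the group difference. With that level in the model, 513 of the 13583 genes had an unadjusted p under 0.05, beside 1815 without it. Of the 10 genes, 2 had an unadjusted edgeR p under 0.05 in that fit, Nadk (0.0364) and Sirt1 (0.0339), beside 1 in the main fit. These counts do not show what part endothelial RNA had in the Nmnat2 result. The adjusted p of Nmnat2 over the alternatives ran from 0.0952, without BKO-4, to 0.953. The β-cell marker level moved in the same direction as Nmnat2 (mean log2 CPM 9.82 in BKO and 10.04 in Cre), and its part in the result was not tested. Nmnat2 is also an axonal protein. Summed CPM of 8 nerve and Schwann cell markers, a list added after the values of Nmnat2 had been seen, ranged from 165.0 to 187.7 in BKO and from 177.0 to 200.4 in Cre. The mean log2 CPM of the same list ran the other way, 2.02 in BKO and 1.87 in Cre. Mbp made up most of the sum, Dbh was at 0 in all 12 libraries, 4 of the 6 tested markers had a negative fold change, and the part of nerve RNA in the result was not tested.

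**Figure D3:**
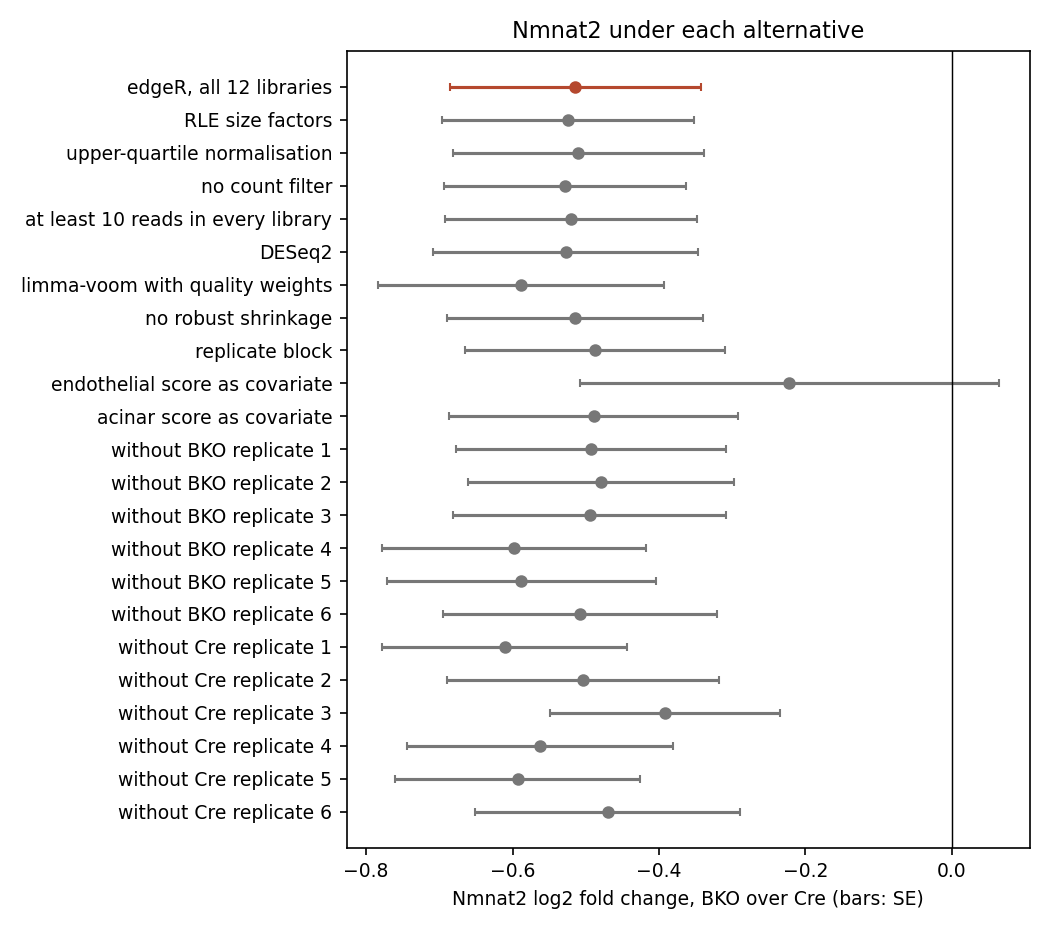
Log2 fold change of Nmnat2, BKO over Cre (x axis), with its SE as bars, from the edgeR fit of all 12 libraries (top, coloured) and from each alternative (grey). The values lie between -0.61 and -0.39 except with the endothelial level as covariate, where the value is -0.22.

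The 250 bases before the RefSeq start of Nmnat2, Nampt and Sirt1, the genes with the smallest p among the 10, are shown because their upstream sequences differ plainly in composition. The sequences are RefSeq's on GRCm38.p6, 5′ to 3′ on the gene's strand; a window could be matched for 9 of the 10 genes. Capitals mark every match on either strand to CACGTG, the E-box bound by clock and MYC proteins, or to TGACG, the core of the cAMP response element; an interferon response element (GAAA, any 2 bases, GAAA) was searched too. The RefSeq start can differ from the end of the GENCODE span given for the gene.
Nmnat2, chr1:152954851-152955100, plus strand: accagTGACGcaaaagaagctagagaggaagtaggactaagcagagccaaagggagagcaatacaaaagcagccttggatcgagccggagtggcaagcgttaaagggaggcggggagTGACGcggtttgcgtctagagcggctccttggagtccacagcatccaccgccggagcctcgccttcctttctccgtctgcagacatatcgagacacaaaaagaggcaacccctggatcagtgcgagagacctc
Nampt, chr12:32820085-32820334, plus strand: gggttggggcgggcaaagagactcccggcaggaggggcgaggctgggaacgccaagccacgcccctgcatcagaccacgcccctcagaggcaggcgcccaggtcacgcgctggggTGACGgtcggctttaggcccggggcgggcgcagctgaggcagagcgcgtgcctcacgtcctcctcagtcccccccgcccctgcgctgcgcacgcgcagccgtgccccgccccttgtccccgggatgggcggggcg
Sirt1, chr10:63339036-63339285, minus strand: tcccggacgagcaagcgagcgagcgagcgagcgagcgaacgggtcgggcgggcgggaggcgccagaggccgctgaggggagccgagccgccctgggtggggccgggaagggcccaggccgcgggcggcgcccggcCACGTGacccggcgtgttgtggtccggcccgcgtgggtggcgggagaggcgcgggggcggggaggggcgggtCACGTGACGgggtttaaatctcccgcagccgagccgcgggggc
The Nmnat2 window held 15 CpG dinucleotides and 2 TGACG matches, the Nampt window 27 CpG and 1 TGACG match, and the Sirt1 window 39 CpG, 2 CACGTG matches and 1 TGACG match that overlaps the second of them. Over 32851 promoter windows of this length the median was 6 CpG, and 17.8% held TGACG, 6.02% CACGTG and 2.98% the interferon response element, which was in none of these 3 windows. A match describes letters in a window and not a bound site.

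Nmnat1 and Nmnat3 had similar levels in the groups. Nmnat1 (chromosome 4, 149467572 to 149485202, minus strand, overlapped on the opposite strand by Tmem274) had 3.97, 4.40 and 5.25 CPM as lowest, median and highest in BKO and 3.86, 4.24 and 5.33 CPM in Cre. Its log2 fold change was 0.022 with a 95% interval of -0.28 to 0.32 (edgeR adjusted p = 0.974). Nmnat3 (chromosome 9, 98287435 to 98420438, plus strand, overlapped on the same strand by the pseudogene Gm28530) had 11.9, 14.5 and 15.4 CPM in BKO and 12.2, 14.0 and 15.4 CPM in Cre. Its log2 fold change was 0.029 with an interval of -0.16 to 0.21 (edgeR adjusted p = 0.937). Both ranges were nearly the same in the groups, and the interval leaves room for changes of either sign in Nmnat1, the gene with the fewest reads.

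Taken per kilobase, Nmnat3 made up most of the NMNAT transcripts in islets. Its share of the 3 paralogs was 63.3 ± 1.09% in BKO and 58.3 ± 4.56% in Cre (SD, n = 6 each). The share of Nmnat2 was 19.3 ± 2.53% in BKO and 25.5 ± 5.40% in Cre, and that of Nmnat1 was 17.5 ± 2.21% in BKO and 16.2 ± 2.87% in Cre. The Nmnat3 share was tightly grouped in BKO, from 61.8 to 64.7%, and spread from 51.5 to 64.2% in Cre, with the lowest share in Cre-3, where Nmnat2 was highest at 34.9%. The sum of the 3 paralogs was 9.01 ± 0.721 CPM per kb in BKO and 9.61 ± 0.887 in Cre. These shares restate the counts of the 3 genes and add no test. They depend on the exon lengths used, 2863 bases for Nmnat1, 4626 for Nmnat2 and 2478 for Nmnat3. Without scaling to length, Nmnat1, Nmnat2 and Nmnat3 had 615, 1363 and 1932 reads over the 12 libraries.

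**Figure D4:**
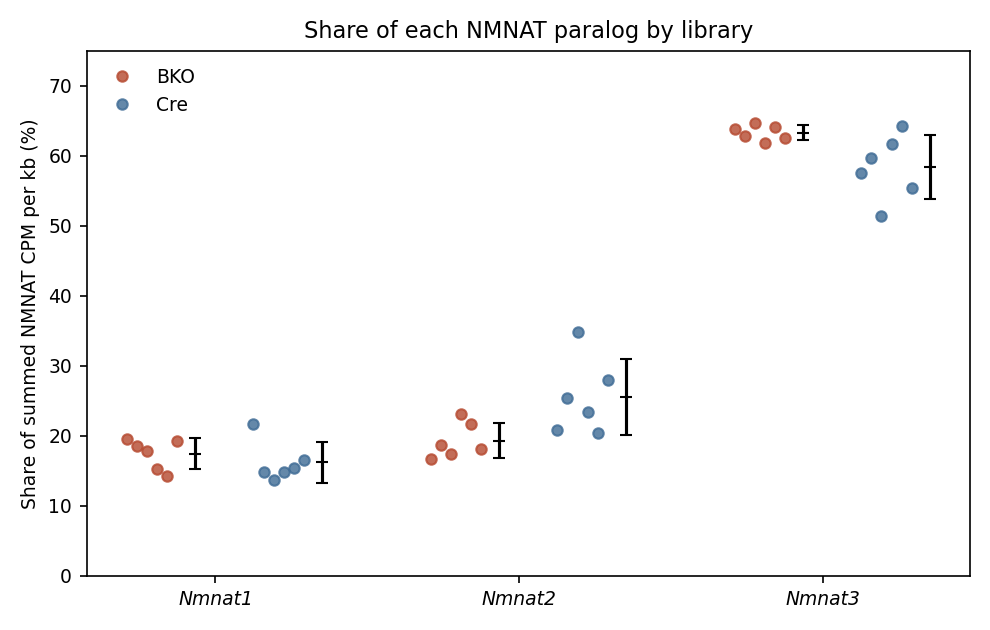
Share of each NMNAT paralog in the summed NMNAT level (CPM per kb of exon, in percent; y axis) for each BKO and Cre library; bars are mean ± SD. Nmnat3 holds most of the sum in all 12 libraries, and the Nmnat2 share averages 19.3% in BKO and 25.5% in Cre.

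The enzymes of NADP and NADPH supply among the 10, Nadk and Nnt, did not pass either. Nadk (chromosome 4, 155562378 to 155591001, plus strand, no overlapping gene) had 80.1, 89.7 and 104.9 CPM as lowest, median and highest in BKO and 84.5, 90.1 and 102.4 CPM in Cre. The groups covered nearly the same range, and the log2 fold change was 0.0062 ± 0.065 (SE; 95% interval -0.13 to 0.14; edgeR adjusted p = 0.985). Its sign was negative with RLE scaling and positive with upper-quartile scaling, and with the endothelial level as a covariate the value was -0.20 (edgeR adjusted p = 0.950). Nadk and Nmnat1 lie on the chromosome of the deleted gene: Il22ra1 spans 135728172 to 135752140 on chromosome 4, and Nmnat1 begins 13.7 Mb and Nadk 19.8 Mb beyond it.

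Nnt (chromosome 13, 119335448 to 119408997, minus strand, ENSMUSG00000025453.18) had 15.6, 18.8 and 22.8 CPM as lowest, median and highest in BKO and 18.5, 20.1 and 23.5 CPM in Cre. The lowest 3 values of all were BKO libraries, BKO-1, BKO-3 and BKO-5, while BKO-6 lay above 5 of the Cre libraries. Mean levels were 19.3 ± 2.62 CPM over the 6 BKO libraries and 20.6 ± 1.76 CPM over the 6 Cre libraries (SD), and the log2 fold change was -0.097 ± 0.093 (SE; 95% interval -0.29 to 0.097; edgeR adjusted p = 0.718). Without BKO-1 the value was -0.049, and with the endothelial level as a covariate -0.25 (edgeR adjusted p = 0.880 and 0.950). Some C57BL/6 substrains carry a deletion of several Nnt exons; with gene-level counts and no strain in the labels, whether those exons were read was not examined. No library stood apart from the rest in Nnt, with all 12 holding between 181 and 286 reads, which does not show whether the deletion was present. GENCODE M21 holds 2 entries named Nnt, while the count files hold 1 row per gene symbol. The genes nearest to Nnt in pattern were Tbc1d5 (0.420 SD), Ywhab (0.420 SD) and Rrp1b (0.448 SD), on the same measure as for Nampt.

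Of the sirtuins, Sirt1 came nearest to a difference. Sirt1 (chromosome 10, 63319005 to 63381704, minus strand, overlapped on the opposite strand by Gm16145), a deacetylase of histones and transcription factors, had 22.1, 25.4 and 26.8 CPM as lowest, median and highest in BKO and 20.02, 22.6 and 25.5 CPM in Cre. Of the BKO libraries 3 lay above every Cre library, and BKO-5 alone lay below the Cre mean. Mean levels were 25.03 ± 1.84 CPM over the BKO libraries and 22.8 ± 1.87 CPM over the Cre libraries (SD). The log2 fold change was 0.14 ± 0.074 (SE; 95% interval -0.016 to 0.29; edgeR adjusted p = 0.440), and the exact permutation p of the gene alone was 0.0606. With the endothelial level as a covariate it was 0.27 (edgeR adjusted p = 0.950).

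Sirt2, Sirt3 and Sirt5 had nearly equal means in the groups. Sirt2 (chromosome 7, 28766735 to 28788661, plus strand, overlapped on the opposite strand by Nfkbib), a tubulin deacetylase, had 47.8, 55.4 and 56.4 CPM as lowest, median and highest in BKO and 49.6, 56.5 and 59.2 CPM in Cre. Its log2 fold change was -0.027 with a 95% interval of -0.15 to 0.10 (edgeR adjusted p = 0.908), the narrowest interval of the 10. Sirt3 (chromosome 7, 140863666 to 140882309, minus strand), the main mitochondrial deacetylase, had 11.5, 13.7 and 16.1 CPM in BKO and 12.9, 13.6 and 15.1 CPM in Cre. The BKO libraries extended beyond the Cre range on both sides, 2 above and 2 below, and the log2 fold change was -0.0039 with an interval of -0.20 to 0.19 (edgeR adjusted p = 0.992). Ric8a and Psmd13 overlap Sirt3 on the opposite strand. Sirt5 (chromosome 13, 43365496 to 43395203, plus strand, no overlapping gene), which removes succinyl and malonyl groups, had 6.21, 7.27 and 7.76 CPM in BKO and 6.74, 6.97 and 7.68 CPM in Cre. Its log2 fold change was -0.0014 with an interval of -0.22 to 0.22 (edgeR adjusted p = 0.997). Sirt5 varied little between control libraries, with an SD of log2 CPM of 0.076 beside a median of 0.13 over all genes.

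Around these 10 genes, 40 further genes of NAD synthesis, NAD use and NADPH supply were examined, of which 30 had enough reads to be tested. None of the 30 was called higher and none lower, with a background of 0%, and 4 had an unadjusted p under 0.05, 2 higher and 2 lower, against 13.4% of all genes. Their median log2 fold change was -0.012, beside 0.0078 over all genes. Of 15 genes of the other routes to NAD, 7 were tested, and 1 had an unadjusted p under 0.05. This was Naprt, which starts the route from nicotinic acid, with 5.92, 8.91 and 11.02 CPM as lowest, median and highest in BKO and 5.70, 6.43 and 8.07 CPM in Cre. Of its BKO libraries 4 lay above every Cre library, and the log2 fold change was 0.41 ± 0.15 (SE; edgeR adjusted p = 0.248); Eef1d overlaps it on the same strand. Pnp, which splits nicotinamide riboside among other nucleosides, was at 0.085, Nadsyn1, the NAD synthetase, at 0.086 and Slc25a51, the mitochondrial NAD carrier, at -0.066 in log2 fold change. Of the 9 genes listed for the route from tryptophan, 2 were tested, Tdo2, which opens it, with 429 reads over the 12 libraries, and Afmid with 580. The other 7 had 77 reads for Ido1, 63 for Haao, 50 for Ido2, 25 for Kynu, 6 each for Qprt and Acmsd, and 0 for Kmo.

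Among 10 further genes listed under NAD use, 8 were tested and 1 had an unadjusted p under 0.05, against 13.4% of all genes. It was Sarm1, the NAD hydrolase that NMNAT2 holds in check in axons, which like Nmnat2 had a lower mean in BKO. Sarm1 had 14.4, 16.6 and 19.1 CPM as lowest, median and highest in BKO and 17.4, 19.05 and 22.4 CPM in Cre. Of its BKO libraries 4 lay below every Cre library and all 6 below the Cre mean, with a log2 fold change of -0.21 ± 0.085 (SE; edgeR adjusted p = 0.296). With the endothelial level as a covariate it was -0.12 (adjusted p = 0.950). Cd38, the NAD glycohydrolase of immune and islet cells, was at 0.23, Parp2, a DNA damage sensor, at 0.075 and Nudt12, an NADH pyrophosphatase, at 0.074 in log2 fold change. Cd38 had only 25 to 50 reads in a library, and with the endothelial level as a covariate it was at -0.38 (edgeR adjusted p = 0.950).

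All 15 further genes listed under NADPH supply were tested, and 2 had an unadjusted p under 0.05, against 13.4% of all genes. Mthfd1, an enzyme of cytosolic folate metabolism that yields NADPH, had 98.3, 106.9 and 114.4 CPM as lowest, median and highest in BKO and 111.9, 116.4 and 121.8 CPM in Cre. Its BKO libraries lay below every Cre library in 5 of 6 cases, with a small log2 fold change of -0.14 ± 0.047 (SE; edgeR adjusted p = 0.228). Me3, the mitochondrial NADP-dependent malic enzyme, was low in all libraries, with 1.13, 2.23 and 4.48 CPM in BKO and 0.794, 1.47 and 2.22 CPM in Cre, and a log2 fold change of 0.72 ± 0.30 (SE; edgeR adjusted p = 0.300). Without BKO-1 the value was 0.47 (edgeR adjusted p = 0.525). Gm45793 overlaps Me3 on the same strand, and A230065N10Rik and Gm15744 overlap it on the opposite strand. Mthfd1 is overlapped on the opposite strand by Gm47525, Gm47526 and Gm34868. Aldh1l2, a mitochondrial folate enzyme, was at -0.14 and Mthfd2l at 0.21 in log2 fold change. The enzymes of the pentose phosphate pathway, a cytosolic source of NADPH, lay near 0, with G6pdx at -0.070, Pgd at -0.013 and Pgls at 0.082.

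**Figure D5:**
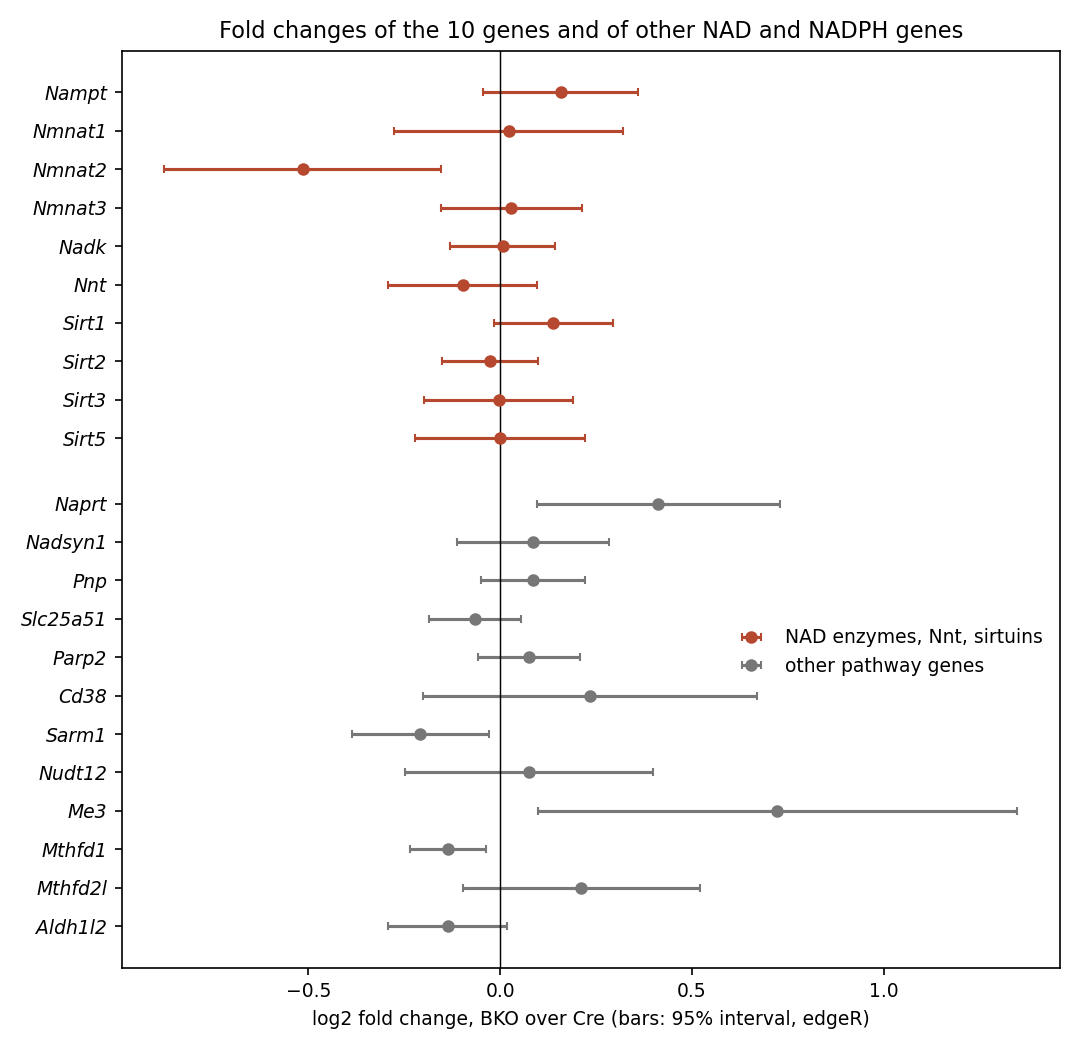
Log2 fold change, BKO over Cre (x axis), with 95% intervals from edgeR, for the 10 genes (coloured) and for up to 4 genes with the smallest p from each of 3 lists of other NAD and NADPH genes (grey). The intervals that leave out 0 are those of Nmnat2, Naprt, Sarm1, Me3 and Mthfd1, none of which passed the test over all genes.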

How the data were processed

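Total RNA was extracted from islets with TRIzol and sequenced as paired-end reads on a NovaSeq instrument, per the labels' protocols. HISAT2 2.0.5, HTSeq and mm10 were used, per the submitters' processing notes; the annotation and strand setting were not given in those notes or the labels. The deposited files hold raw counts, 1 row per gene symbol. Their 5 summary lines name no gene and were left out; reads set aside for low alignment quality were 16.7% to 27.3% of each library. A second deposited table of the same libraries was not used.

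Counts were tested with edgeR 4.0.16 in R 4.3.3 (filterByExpr, TMM, robust quasi-likelihood test) and adjusted over 13583 genes. CPM use TMM-scaled totals, standard errors come from the test statistic, and marker levels are means of log2(CPM + 0.25). The biological coefficient of variation was 11.7%. The script was tested on simulated data. No replicate pair agreed within sampling noise (chi-square 5.08 to 30.1 times its degrees of freedom, 30 pairs), so none was taken as a repeat reading of another. Each library counts once, but this does not show that the libraries came from separate mice. Coordinates and exon lengths come from GENCODE M21 (GRCm38, which is mm10).

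The genes, lists and tests were chosen with earlier results of these data known. The text names all 10 genes, up to 4 tested genes of each pathway list by smallest p, and the 3 genes nearest in pattern to Nampt and Nnt; the genes of the tryptophan route and the pentose phosphate pathway were named after their values were seen. Alternatives were RLE and upper-quartile scaling, no filter or at least 10 reads in every library, DESeq2 1.42.0, limma-voom with quality weights (limma 3.58.1), no robust shrinkage, a threshold of 0.1, the replicate number as a block, endothelial or acinar markers as a covariate, and each library left out.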

Additional observations from a re-analysis of the deposited data

How the results depend on the processing

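No alternative called any of the 10 genes or of the 30 other pathway genes tested. Over all genes, where edgeR called 0 (1815 at an unadjusted p under 0.05), DESeq2 called 198 (149 higher, 49 lower) and the fit with the replicate number as a block 364 (292 higher, 72 lower). With 1 library left out the calls ranged from 0 to 262, from 0 to 135 higher and from 0 to 127 lower; they were 262 without BKO-4, 110 without Cre-5, 6 without Cre-1 and 5 without BKO-3. The other alternatives called 0. The shared numbers were not taken to pair the samples, since the labels tie them to nothing and not every pair's deviations correlated above 0.1: over 2000 genes the correlations ran from -0.0637 to 0.307, above 0.1 in 4 of 6 pairs. As a hint from the data, 3 of 6 BKO libraries correlated best with their own number. The block changed no call among the 10 genes; in it the log2 fold change of Nmnat2 was -0.49 (edgeR adjusted p = 0.188).

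Nampt, Nmnat2, Nnt and Sirt1 kept their direction in all 22 alternative fits. Genes near equality changed sign, as did Cd38, which was at 0.23 in the main fit, and the cause was not tested. Nadk was at -0.0031 with RLE, -0.0071 with no filter, -0.0060 with DESeq2, -0.20 with the endothelial covariate and -0.025 with the acinar covariate. Nmnat3 was at -0.013 with limma-voom. Sirt3 and Sirt5 were at 0.0012 and 0.0038 with upper-quartile scaling, Sirt3 at 0.039 with the endothelial covariate and Sirt5 at 0.0021 with the acinar one. With the endothelial covariate Sirt2 was at 0.11, Slc25a51 at 0.054 and Cd38 at -0.38. Over the fits that leave out 1 library the log2 fold change ranged from -0.036 to 0.065 for Nmnat1, from -0.022 to 0.059 for Nmnat3, from -0.049 to 0.042 for Nadk, from -0.063 to 0.030 for Sirt3, from -0.043 to 0.034 for Sirt5 and from -0.081 to 0.15 for Nudt12. Me3 could not be fitted with at least 10 reads in every library. Of the 10 genes Nmnat1 had the fewest reads, 42 to 62 per library, and so the largest counting error. In none of the 10 genes did a library stand apart from its group by Dixon's test.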
